A study of Mus musculus with 14 samples.

Results

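The 8 genes Bloc1s1, Hgsnat, Tapbp, Scara3, Col6a1, Sparc, Pdgfrb and Pmp22 are named in earlier work as transcripts that the endoribonuclease IRE1 removes during stress of the endoplasmic reticulum (ER). They were chosen by name, and each was read by its brightest probe set, the set of short probes on the array that stands for 1 transcript. Of the 8, 7 had a probe set of their own, among 18193 genes of the platform that did, and these 7 were among the 12084 genes that passed a filter on low signal and were tested. Bloc1s1 was represented only by a probe set that the platform annotation assigns to Rdh5 and Bloc1s1 together, and its values are given under that double name.

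IRE1 is a kinase and endoribonuclease of the ER membrane. When unfolded proteins gather in the ER it cuts Xbp1 mRNA, which is then rejoined to encode an active transcription factor, and it also cuts other mRNAs, mostly at the ER membrane, which are then degraded. This regulated IRE1-dependent decay lowers the load of proteins entering the ER. PERK, encoded by Eif2ak3, is another stress sensor of the ER membrane, and it slows translation by phosphorylating eIF2. Many of the 8 transcripts were first described as decay targets in mouse fibroblasts, and in liver several of them belong to cells other than hepatocytes.

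RNA from 14 samples of mouse liver was measured on 1 Affymetrix array each, 3 of WT control, 4 of WT tunicamycin, 3 of lsPERK control and 4 of lsPERK tunicamycin. Control samples received 0.3% DMSO, with no time in the labels, and treated samples received 1 mg/kg tunicamycin, an inhibitor of N-linked glycosylation, for 6 h. lsPERK is the knock-out genotype of the series. The labels give neither the age or strain of the mice, nor the deleted part of the gene, nor a driver of the deletion. Whether replicates are separate animals is not stated either, and the p-values cover no more than the spread among these 14 samples.

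The arrays gave transcript levels, in which synthesis and decay cannot be told apart, and the labels give no mutation or inhibitor of IRE1 in any group. In these bulk samples, fewer cells of a type and less RNA per cell cannot be told apart either. Levels below are normalized intensities without a unit, and they are compared only within a probe set. The summed level of 9 hepatocyte markers ran from 134723 to 145443 over the 14 arrays. It was taken after quantile normalization, which gives every array the same set of values and so limits how far a sum of bright probe sets can vary. The sum therefore does not measure the share of hepatocytes. Eif2ak3 read 240.2 to 443 in WT control, 1725 to 2422 in WT tunicamycin, 127 to 157 in lsPERK control and 239 to 316 in lsPERK tunicamycin, and whether its probe set lies in the deleted part is unknown here. Arrays with high Xist signal numbered 1 of 3, 1 of 4, 2 of 3 and 2 of 4 in the groups in that order. Quantile normalization was used because array medians of the deposited intensity differed by 0.63 on the log2 scale, and this choice matters for small differences. The median response of all tested genes in WT liver was -0.13 on the log2 scale after normalization and 0.30 as deposited, so signs of members near 0 are given on both scales.

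The letters CTGCAG stand in the downstream of the loops that IRE1 cuts in Xbp1 mRNA and in cut sites reported for decay targets, and they are shown here as the part of the members' transcripts that the RefSeq promoter table (GRCm38.p6) allows to be read. That table gives the first 50 transcribed bases of 32851 starts, and these letters, which read the same on both strands, stood within them at 4.06% of all starts. Counted by gene, 4.77% of 27025 genes had at least 1 such start. The table held 5 of the 8 members, and 3 of those genes had the core there. The sites lie on GRCm38.p6 at chr10:76725995-76726021 on the minus strand for Col6a1, at chr10:128923475-128923498 on the minus strand for Bloc1s1 and at chr11:63131457-63131482 on the plus strand for Pmp22, with the core in capitals.
Col6a1: tctgggctctgaCTGCAGcaagcagag
Bloc1s1: atagtccagttcCTGCAGccttag
Pmp22: acacccttCTGCAGcgacgcaaatag
The core began at base 36 of the transcript for Col6a1, at base 39 for Bloc1s1 and at base 9 for 1 of the 4 starts of Pmp22. The remaining transcript was not read, and a match is a description of letters, not a cut site. Of these 3 genes, Col6a1 and Pmp22 did not pass the test in either response, as described further on, while the probe set that includes Bloc1s1 fell in both. Tapbp, which also fell in both, and Sparc were read there without the core. Hgsnat was not among the 5 genes that could be read.

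In WT liver 2 of the 7 tested members, Hgsnat and Tapbp, fell after tunicamycin at an adjusted p under 0.05, against 26% of all tested genes called lower in that comparison. In lsPERK liver the same 2 members fell, against 7.28% of all tested genes called lower. No member rose in either genotype, while 20.7% of genes were called higher in WT and 8.39% in lsPERK liver. The median over the 7 members was -0.47 in WT liver and -0.19 in lsPERK liver on the log2 scale, and the median over all tested genes was -0.13 and -0.02. With each array left out in turn, the members' median ran from -0.66 (without WT control replicate 3) to -0.27 (without WT control replicate 1) in WT liver and from -0.23 to -0.10 in lsPERK liver. It was -0.77 in WT liver without WT tunicamycin replicates 1 and 2, the treated arrays of high deposited median. As deposited it was -0.07 in WT liver, where the median over all genes was 0.30. The count of 2 members called lower held after normalization, as deposited and with median centring, while the share of all tested genes called lower in WT liver was 26%, 5.84% and 16.2% on these scales. How the members' share stands to the background in WT liver thus depended on the scaling.

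Hgsnat encodes the lysosomal membrane acetyltransferase that acetylates heparan sulfate during its breakdown. Its level was 1512, 1269.8 and 1331 in the 3 WT control arrays and 519.6, 560.4, 469 and 509 in the 4 WT tunicamycin arrays. The lsPERK levels were 1136, 1856 and 1294 in the controls and 609, 599.9, 558 and 498 after tunicamycin. All 8 treated arrays lay below all 6 control arrays. Lack of overlap in this direction was found for 26.5% of tested genes in WT and 13.8% in lsPERK liver.

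The fall of Hgsnat was 2.66-fold in WT liver, a log2 difference of -1.41 (SE 0.15, 95% confidence interval -1.73 to -1.09, limma adjusted p = 4.28e-06). In lsPERK liver it was 2.48-fold, a log2 difference of -1.31 (interval -1.63 to -0.99, limma adjusted p = 4.86e-05). Among the 12084 genes, 511 had a lower log2 difference in WT and 189 in lsPERK liver. The difference between both responses was 0.10 (interval -0.35 to 0.56, limma adjusted p = 0.785), so a moderate difference in either direction lies within the interval. It was -0.46 with values as deposited, where the median over all genes was -0.42.

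Tapbp encodes tapasin, which holds empty MHC class I molecules at the peptide transporter of the ER. Its level was 2633, 1858 and 2150.3 in WT control and 942, 1024, 932 and 953 in WT tunicamycin arrays. The lsPERK arrays read 2258, 2295 and 2408 in the controls and 1176, 1159.7, 961 and 1270.2 after tunicamycin. Again every treated array lay below every control array of both genotypes. In this direction 26.5% of tested genes did not overlap in WT and 13.8% in lsPERK liver. The fall was 2.28-fold in WT liver, a log2 difference of -1.19 (SE 0.12, interval -1.45 to -0.93, limma adjusted p = 2.97e-06), and 2.04-fold in lsPERK liver, a log2 difference of -1.03 (interval -1.29 to -0.77, limma adjusted p = 5.93e-05).

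The responses of Tapbp differed by 0.16 on the log2 scale (interval -0.21 to 0.52, limma adjusted p = 0.581), and by -0.36 as deposited. The dimmer probe set of Tapbp read 278 to 334 in WT control and 145 to 174 in WT tunicamycin arrays. It fell by 0.87 on the log2 scale in WT liver in a fit over all kept probe sets (limma adjusted p = 0.0169). The lsPERK readings were 696, 290.4 and 311 in the controls and 176 to 292 after tunicamycin, a log2 difference of -0.76 that did not pass the test (limma adjusted p = 0.0793), and 1 control array stood above the other two.

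Bloc1s1 encodes a subunit of BLOC-1 and BORC, complexes that sort cargo to lysosome-related organelles and position lysosomes, and Rdh5 encodes a retinol dehydrogenase. The RefSeq models of both genes overlap by 124 bases, and the accession of the shared probe set is that of a Bloc1s1 mRNA, yet the annotation names both, and its signal is not split here. It read 2424, 1914 and 2088 in WT control and 244, 407, 281 and 356 in WT tunicamycin arrays. For lsPERK liver the readings were 2082, 1819 and 2006 in the controls and 682, 812, 769.8 and 732 after tunicamycin. The treated arrays of both genotypes lay below all controls. Treated arrays lay below the controls for 26.5% of tested genes in WT and 13.8% in lsPERK liver. The WT treated arrays lay below the lsPERK treated ones, in a comparison where limma called 14.9% of all kept probe sets higher in lsPERK liver. The share without overlap in that comparison is not given here.

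This shared probe set was tested in the fit over all 25315 kept probe sets, of which 20.4% were called lower in WT and 5.1% in lsPERK liver. It fell 6.75-fold in WT liver, a log2 difference of -2.75 (SE 0.16, interval -3.09 to -2.42, limma adjusted p = 1.87e-08), and 93 probe sets had a lower value. The fall in lsPERK liver was 2.63-fold, a log2 difference of -1.40 (interval -1.73 to -1.06, limma adjusted p = 5.41e-05). The fall was smaller in lsPERK liver by 1.36 on the log2 scale (interval 0.88 to 1.84, limma adjusted p = 0.00129), and 7.09% of probe sets were called higher in this difference. With values as deposited the difference was 0.85 and was no longer called (limma adjusted p = 0.0981).

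Rdh5 had a probe set of its own, which allows its response to be set beside the shared one. It read 694, 784 and 524 in WT control and 268, 295, 361 and 341 in WT tunicamycin arrays. The lsPERK arrays read 601, 558 and 705 in the controls and 766, 585, 537 and 520.4 after tunicamycin. The WT groups did not overlap, as for 26.5% of tested genes in this direction, and the lsPERK groups did. Rdh5 fell by 1.07 on the log2 scale in WT liver (limma adjusted p = 1.73e-04) and the difference was -0.06 in lsPERK liver (limma adjusted p = 0.877). The 2 responses of Rdh5 differed by 1.01 (limma adjusted p = 0.0103). As deposited, the WT difference of Rdh5 was -0.51 and was not called (limma adjusted p = 0.0959), nor was its difference between genotypes of 0.45 (limma adjusted p = 0.396). The 2 probe sets thus had unlike values in lsPERK liver, where the shared one fell and that of Rdh5 alone did not pass the test.

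**Figure D1:**
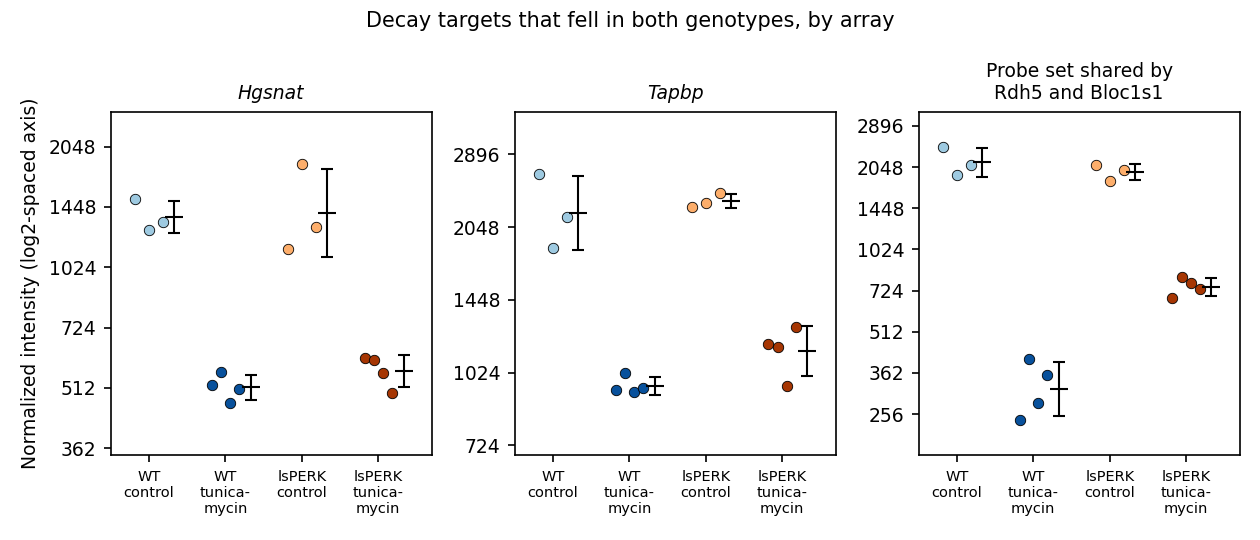
Normalized intensity of Hgsnat, Tapbp and the probe set shared by Rdh5 and Bloc1s1 in each of the 14 arrays, on a log axis, by group, with bars for the mean and SD of the group's log2 values. All treated arrays lie below all controls. For the shared probe set, WT tunicamycin arrays read 244 to 407 and lsPERK tunicamycin arrays 682 to 812.

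The 5 other members did not pass the test in either genotype with the brightest probe set. Sparc encodes a collagen-binding matrix glycoprotein that liver makes mainly in mesenchymal and endothelial cells. It read 1633, 975 and 650.3 in WT control and 634, 946, 711 and 439.8 in WT tunicamycin arrays, and 899, 869.7 and 713 in lsPERK control and 1155, 937, 699.7 and 721 in lsPERK tunicamycin arrays. The groups of each genotype overlapped, and WT control replicate 1 was the highest of all 14. The log2 difference was -0.62 in WT liver (interval -1.26 to 0.02, limma adjusted p = 0.102) and 0.06 in lsPERK liver (limma adjusted p = 0.927).

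The second probe set of Sparc was nearly as bright. It read 1694, 1024 and 893 in WT control and 558, 1119.7, 469.9 and 389 in WT tunicamycin arrays, and it fell by 0.99 on the log2 scale (limma adjusted p = 0.0148 in the fit over all kept probe sets), although WT tunicamycin replicate 2 lay among the controls. The lsPERK readings were 912, 999 and 1074 in the controls and 834, 778, 619 and 731 after tunicamycin. Those groups did not overlap, as for 13.8% of tested genes in this direction in lsPERK liver. The log2 difference of -0.43 was not called (limma adjusted p = 0.409). Whether Sparc fell in WT liver thus depended on the probe set.

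Pmp22 encodes a membrane glycoprotein known from the myelin of peripheral nerve that is also made in many other cells. It read 211, 141 and 159.9 in WT control and 129, 144, 126 and 119 in WT tunicamycin arrays, with an overlap of 1 treated and 1 control array. Levels in lsPERK liver were 176, 181 and 148 in the controls and 176, 179, 141 and 127 after tunicamycin. The log2 difference was -0.38 in WT (interval -0.75 to -0.01, limma adjusted p = 0.0831) and -0.12 in lsPERK liver (limma adjusted p = 0.703).

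Pdgfrb encodes the receptor for the B chain of platelet-derived growth factor, which marks stellate cells and other mesenchymal cells of liver. It read 232, 201 and 119 in WT control and 128, 173, 145 and 109 in WT tunicamycin arrays. Levels in lsPERK liver were 136, 209 and 262 in the controls and 197, 162, 175 and 155 after tunicamycin. The groups overlapped in both genotypes, with log2 differences of -0.37 (limma adjusted p = 0.253) and -0.19 (limma adjusted p = 0.692). Its second probe set passed the filter in only 4 arrays and is not described further.

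Col6a1 encodes a chain of collagen VI, a microfibril of the matrix. It read 114, 111 and 53.5 in WT control and 72.1, 78.1, 67.7 and 76.2 in WT tunicamycin arrays, so that the lowest and the highest arrays of WT liver were both controls. In lsPERK liver it read 93.7, 88.3 and 111 in the controls and 81.5, 101.0, 67.7 and 89.4 after tunicamycin. The log2 differences were -0.26 (limma adjusted p = 0.423) and -0.21 (limma adjusted p = 0.645).

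Scara3, a class A scavenger receptor relative of the ER and Golgi membranes, was the dimmest member. It exceeded the filter threshold of 41.5 in 7 of 14 arrays, and its mean over the arrays lay below that threshold. It read 47.9, 47 and 47.2 in WT control and 35.6, 49.7, 26.8 and 28.6 in WT tunicamycin arrays, a log2 difference of -0.47 (limma adjusted p = 0.186). In lsPERK liver it read 30, 35.4 and 35.3 in the controls and 56.3, 45.9, 55.3 and 35.3 after tunicamycin, a log2 difference of 0.50 (limma adjusted p = 0.265). The signs of the responses were opposite, and their difference of 0.97 (interval 0.12 to 1.82) missed the threshold after adjustment over all genes (limma adjusted p = 0.105).

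As deposited, the WT differences of Col6a1, Pdgfrb and Pmp22 were 0.08, 0.08 and 0.07, so their sign turned with the scaling, and none was called on either scale. The count of members lower in WT liver rested in part on single arrays. It was 5 without WT control replicate 3, which held the lowest control levels of Col6a1, Sparc and Pdgfrb, and the log2 differences were then -0.61, -0.94 and -0.66 (limma adjusted p = 0.0238, 0.0213 and 0.0486). It was 4 with Xist status in the fit, when Sparc (log2 -0.57, limma adjusted p = 0.0201) and Pmp22 (log2 -0.35, limma adjusted p = 0.0251) joined Hgsnat and Tapbp. Of all tested genes, 22% were called lower without WT control replicate 3 and 29.5% with Xist status. Sparc was also called without WT tunicamycin replicate 2 (log2 -0.80, limma adjusted p = 0.0425) and Pmp22 without WT control replicate 2 (log2 -0.51, limma adjusted p = 0.0424). Without WT control replicate 1, by contrast, the WT log2 differences of Sparc, Col6a1, Pdgfrb and Pmp22 were at their smallest (limma adjusted p = 0.47, 0.868, 0.644 and 0.351). Over all 14 arrays left out in turn they ran from -0.94 to -0.27 for Sparc, -0.61 to -0.07 for Col6a1, -0.66 to -0.18 for Pdgfrb and -0.51 to -0.22 for Pmp22. In lsPERK liver the count stayed at 2 with each array left out in turn.

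**Figure D2:**
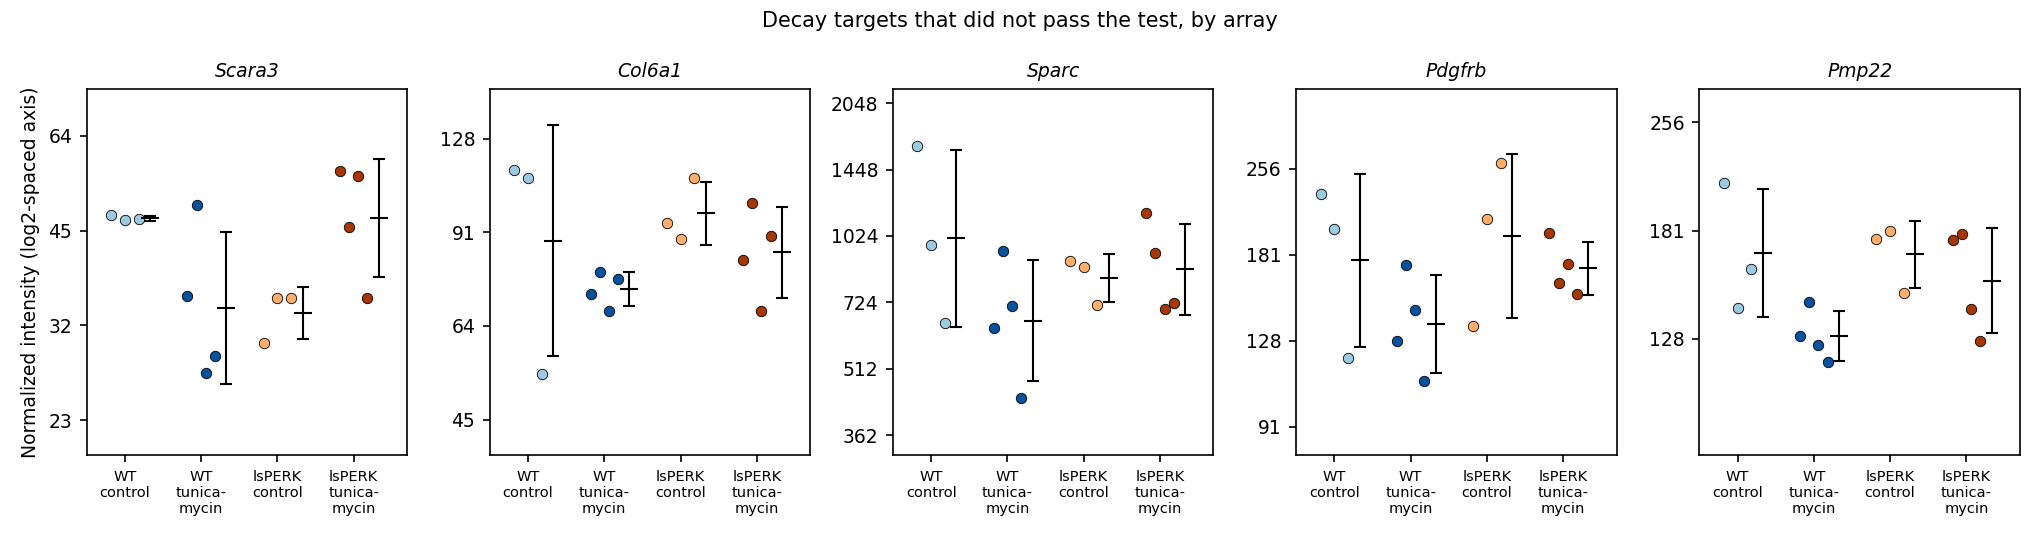
Normalized intensity of Sparc, Pmp22, Pdgfrb, Col6a1 and Scara3 in each of the 14 arrays, on a log axis, by group, with bars for the mean and SD of the group's log2 values. Treated and control arrays overlap in both genotypes, as for Col6a1, where WT control arrays (53.5 to 114) enclose all WT tunicamycin arrays.

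Markers of the cells in which several of these members are best known were read beside them. Of 11 measured stellate cell markers, 4 were called lower and 0 higher in WT liver, with a median log2 difference of -0.48, and 0 were called in lsPERK liver, with a median of -0.08. Over all tested genes 26% were called lower in WT and 7.28% in lsPERK liver, with medians of -0.13 and -0.02. Their summed level ran from 9938 to 14438 in WT control, 7651 to 10872 in WT tunicamycin, 10863 to 12300.1 in lsPERK control and 10491 to 13684 in lsPERK tunicamycin arrays. As deposited or with median centring, 0 stellate markers were called in WT liver, against 5.84% and 16.2% of all genes called lower. With Xist status in the fit 6 of the 11 were called lower, against 29.5% of all genes. Without WT control replicate 3 the count was 5, against 22% of all genes. None of the 11 was at 0, and the part of these cells in the levels of Sparc, Pmp22, Pdgfrb and Col6a1 was not tested.

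For the other cell types the counts called lower in WT liver were 1 of 8 fibroblast and smooth muscle markers, 2 of 12 endothelial markers and 1 of 10 Kupffer cell markers, again against 26% of all genes. As deposited, 0 of each of these 3 lists were called lower, and 1 endothelial marker was called higher. On that scale 5.84% of all genes were lower and 30.1% higher. Median centring gave 0 endothelial markers lower and 1 higher, against 16.2% and 24.9% of all genes. With Xist status in the fit 5 of 10 Kupffer cell markers were called lower, against 29.5% of all genes. All 10 Kupffer cell markers were negative in both genotypes, with medians of -0.73 in WT and -0.55 in lsPERK liver. Their summed level varied widely, from 9341 to 26747 in WT control and from 5523 to 17722 in WT tunicamycin arrays. Of 3 measured Schwann cell markers 1 was called lower in WT liver, and 0 of 3 cholangiocyte and 0 of 8 leukocyte markers were. Hepatocyte markers had 2 of 9 lower and 1 higher in WT liver and 0 called in lsPERK liver, against 26% and 20.7% of all genes called lower and higher in WT liver. As deposited 0 were lower and 2 higher in WT liver, where 5.84% and 30.1% of all genes were.

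Other transcripts reported as decay targets were read as a separate list of 10 genes, of which 9 were tested. In WT liver 6 fell and 0 rose, with a median of -0.90, and in lsPERK liver 2 fell and 0 rose, with a median of -0.32. Over all tested genes 26% were called lower in WT and 7.28% in lsPERK liver, with medians of -0.13 and -0.02. As deposited, 4 of the list were called lower in WT liver, against 5.84% of all genes. Without WT control replicate 3 the count was also 4, against 22% of all genes. Ces1d, a carboxylesterase of hepatocytes, read 10362 to 11300.2 in WT control and 647 to 1309 in WT tunicamycin arrays, and 10632 to 12641 and 1644 to 2282 in lsPERK liver. It fell 11.98-fold in WT and 5.63-fold in lsPERK liver.

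Pdk2, a kinase that restrains pyruvate dehydrogenase, read 1185 to 1412 in WT control and 492 to 584 in WT tunicamycin arrays, and 1252 to 1341 and 526 to 725 in lsPERK liver. It fell by 1.22 and 1.10 on the log2 scale (limma adjusted p = 1.91e-06 and 2.56e-05), and the difference between both responses was 0.11 (limma adjusted p = 0.692). Ergic3, a cargo receptor between ER and Golgi, read 1204 to 1377 in WT control and 513 to 673 in WT tunicamycin arrays, and 1099 to 1266 and 898 to 1029 in lsPERK liver. It fell by 1.07 in WT liver (limma adjusted p = 3.14e-06), and in lsPERK liver the difference was -0.32 (limma adjusted p = 0.0656). Rtn4, which shapes ER tubules, fell by 1.39 in WT liver (limma adjusted p = 0.00392), and in lsPERK liver the difference was -0.32 (limma adjusted p = 0.589). For Ces1d and Ergic3 the response was smaller in lsPERK liver by 1.09 and 0.76 (limma adjusted p = 0.0103 and 0.00403), calls that were lost as deposited. In all, 3 of the 9 were called higher in this difference, against 10.2% of all genes. As deposited 0 were, against 1.08% of all genes. The third was Tgoln1, named here after its values were seen, with a difference of 0.85 (limma adjusted p = 0.012).

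The IRE1 arm itself was read from 11 tested genes. In WT liver 7 rose and 1 fell, and in lsPERK liver 5 rose and 0 fell. Over all tested genes 20.7% were called higher and 26% lower in WT liver, and 8.39% and 7.28% in lsPERK liver. As deposited, 7 of the 11 were higher in WT liver, against 30.1% of all genes. In lsPERK liver 2 were then higher, against 3.37% of all genes. Ern1, which encodes IRE1 alpha, read 1562, 1762 and 1615 in WT control and 3828, 4599, 3715 and 4243 in WT tunicamycin arrays, and 1233, 1721 and 1708 in lsPERK control and 2167, 2483, 2633 and 2251 in lsPERK tunicamycin arrays. Treated arrays lay above controls in both genotypes, and WT treated arrays above lsPERK treated ones. Between the treated groups limma called 16.8% of all genes lower in lsPERK liver. The shares of all genes without overlap in these directions are not given here. Ern1 rose 2.48-fold in WT and 1.55-fold in lsPERK liver, and the responses differed by -0.68 (limma adjusted p = 0.0151).

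Xbp1, whose mRNA IRE1 splices, read 7480.3 to 9151 in WT control and 12623 to 13549.9 in WT tunicamycin arrays, and 8499 to 10383 and 8339 to 10427 in lsPERK liver. The probe set gives total Xbp1 and not its splicing. Xbp1 is named here after its values were seen. It rose by 0.63 on the log2 scale in WT liver (limma adjusted p = 8.90e-05), and the difference was -0.03 in lsPERK liver (limma adjusted p = 0.872). Dnajb9, a chaperone gene that spliced XBP1 activates, rose by 1.90 and 1.58. Edem1, which helps to clear misfolded glycoproteins, rose by 1.57 in WT and 0.63 in lsPERK liver, a difference of -0.93 (limma adjusted p = 0.00236). Bhlha15, a transcription factor gene downstream of XBP1, was called higher in both genotypes, from a level below the filter threshold. As deposited, Ern1 and Edem1 were not called in lsPERK liver (limma adjusted p = 0.0708 and 0.0779).

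**Figure D3:**
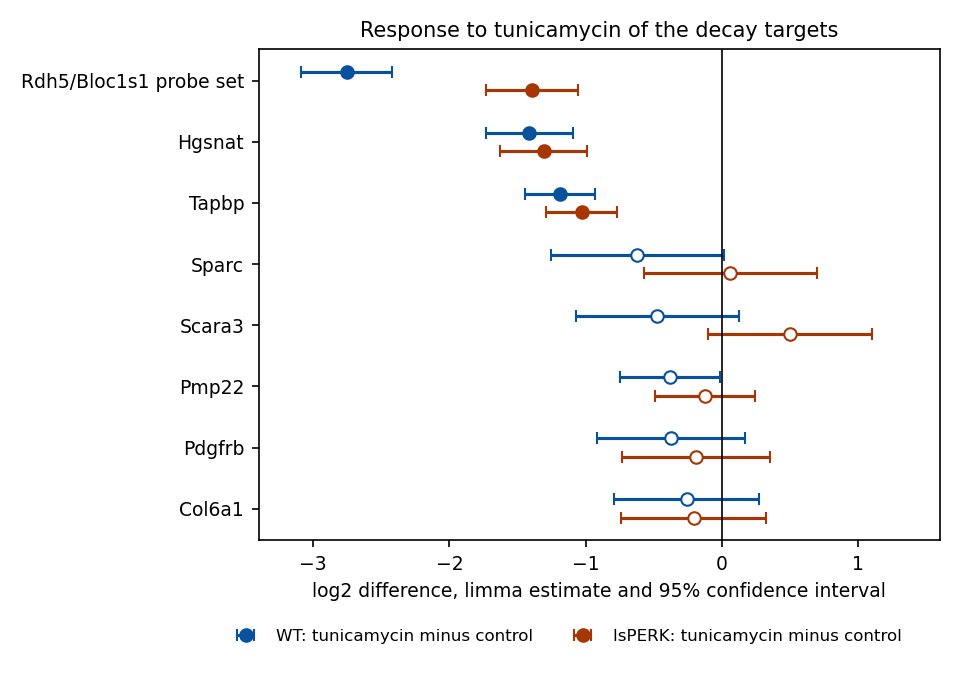
Log2 difference between tunicamycin and control for each member and for the probe set shared by Rdh5 and Bloc1s1, with 95% confidence intervals from limma, in WT (blue) and lsPERK liver (brown), and with filled points for called values. Hgsnat and Tapbp lie far below 0 in both genotypes, and the shared probe set lies at -2.75 in WT and -1.40 in lsPERK liver.

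Partners of each member were read from lists chosen by function, and their counts stand against 26% of all genes called lower and 20.7% called higher in WT liver. Counts in lsPERK liver stand against 7.28% called lower and 8.39% called higher. Hgsnat acts with other lysosomal enzymes that degrade heparan sulfate. Of 7 such genes tested, 4 fell and 1 rose in WT liver, and 1 fell in lsPERK liver. Gusb, a glucuronidase, fell by 1.26 on the log2 scale in WT liver, Sgsh, a sulfamidase, by 1.05, Naglu, a glucosaminidase, by 0.91 and Ids, a sulfatase, by 0.68 (limma adjusted p = 1.07e-05, 0.00226, 2.30e-04 and 2.20e-04). In lsPERK liver Naglu fell by 0.61 (limma adjusted p = 0.0144), and the differences of Gusb, Ids and Sgsh were -0.45, -0.06 and -0.05, not called. The responses of Gusb, Ids and Sgsh differed between genotypes by 0.81, 0.62 and 1.00 (limma adjusted p = 0.015, 0.0147 and 0.0495), and none of these 3 differences was called as deposited or with median centring. As deposited, 1 gene of the list was called lower in WT liver, against 5.84% of all genes.

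Tapbp acts in the peptide loading of MHC class I. Of 10 partners, 2 fell and 4 rose in WT liver, and 2 fell and 3 rose in lsPERK liver, with medians of -0.07 and -0.08. Over all tested genes 26% were called lower and 20.7% higher in WT liver, and 7.28% and 8.39% in lsPERK liver. The ER chaperone genes Pdia3 and Calr, whose proteins sit with tapasin in the loading complex, rose by 1.12 and 0.63 in WT liver and by 0.92 and 0.50 in lsPERK liver. Tapbpl, the closest relative of Tapbp, rose by 0.78 in WT liver (limma adjusted p = 1.91e-04), and the difference was 0.18 in lsPERK liver (limma adjusted p = 0.378). Erap1, which trims peptides in the ER, fell by 0.71 and 0.52 (limma adjusted p = 7.01e-04 and 0.0197), calls lost as deposited. Tapbp thus fell while 4 of its partners rose in WT liver.

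Of 11 tested subunits of BLOC-1 and BORC other than Bloc1s1, 3 fell and 3 rose in WT liver, and 2 fell in lsPERK liver. In lsPERK liver 7.28% of all genes were called lower. As deposited 0 of the 11 were lower and 4 higher in WT liver, where 5.84% and 30.1% of all genes were. Bloc1s4 and Borcs6 rose by 1.06 and 0.96 in WT liver (limma adjusted p = 1.60e-05 and 2.40e-04). Bloc1s5 and Snapin fell by 0.81 and 0.74 in WT liver (limma adjusted p = 2.32e-04 and 8.34e-05) and by 0.47 and 0.41 in lsPERK liver (limma adjusted p = 0.0302 and 0.0206). These falls were not called as deposited. The lowest value of the list was -0.81, against -2.75 for the probe set shared by Rdh5 and Bloc1s1.

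Partners of the matrix members were 14 collagen and matrix genes, 12 of them tested. All 12 were negative in WT liver, where 4 fell and the median was -0.55, and 6 were negative in lsPERK liver, where 0 were called. As deposited, 6 of 12 were negative and 1 was called lower in WT liver, against 5.84% of all genes called lower. Fn1, fibronectin, fell by 1.32 (limma adjusted p = 6.75e-07), Col4a2 by 0.59, Col3a1 by 0.82 and Col4a1 by 0.50 (limma adjusted p = 0.00125, 0.0451 and 0.0499), and as deposited Col4a1 was at 0.02. In lsPERK liver Fn1 was at -0.16, and its responses differed by 1.15 (limma adjusted p = 3.02e-04), a call that the other scalings left in place. Col6a2 and Col6a3, the other chains of collagen VI, are named here after their values were seen, and they were not called in WT liver (log2 -0.29 and -0.20, limma adjusted p = 0.15 and 0.316) or in lsPERK liver (log2 -0.04 and 0.45, limma adjusted p = 0.9 and 0.0613).

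For Pdgfrb the 5 tested ligands and receptors of the PDGF system had 1 lower and 1 higher in WT liver and 1 higher in lsPERK liver. Of all genes, 8.39% were called higher in lsPERK liver. The ligand gene Pdgfa rose by 0.95 and 0.82 (limma adjusted p = 0.00437 and 0.029), and Pdgfc fell by 0.57 in WT liver (limma adjusted p = 0.0238), with a difference of -0.44 in lsPERK liver (limma adjusted p = 0.14). Of 7 relatives of Pmp22 and Scara3, 2 fell in WT and 1 in lsPERK liver, against 26% and 7.28% of all genes. The scavenger receptor gene Msr1 and the Pmp22 relative Emp3 fell by 1.09 and 1.00 in WT liver (limma adjusted p = 0.00158 and 0.0235), and Emp2 fell by 1.15 in lsPERK liver (limma adjusted p = 0.0339). All 4 falls lost their call as deposited.

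**Figure D4:**
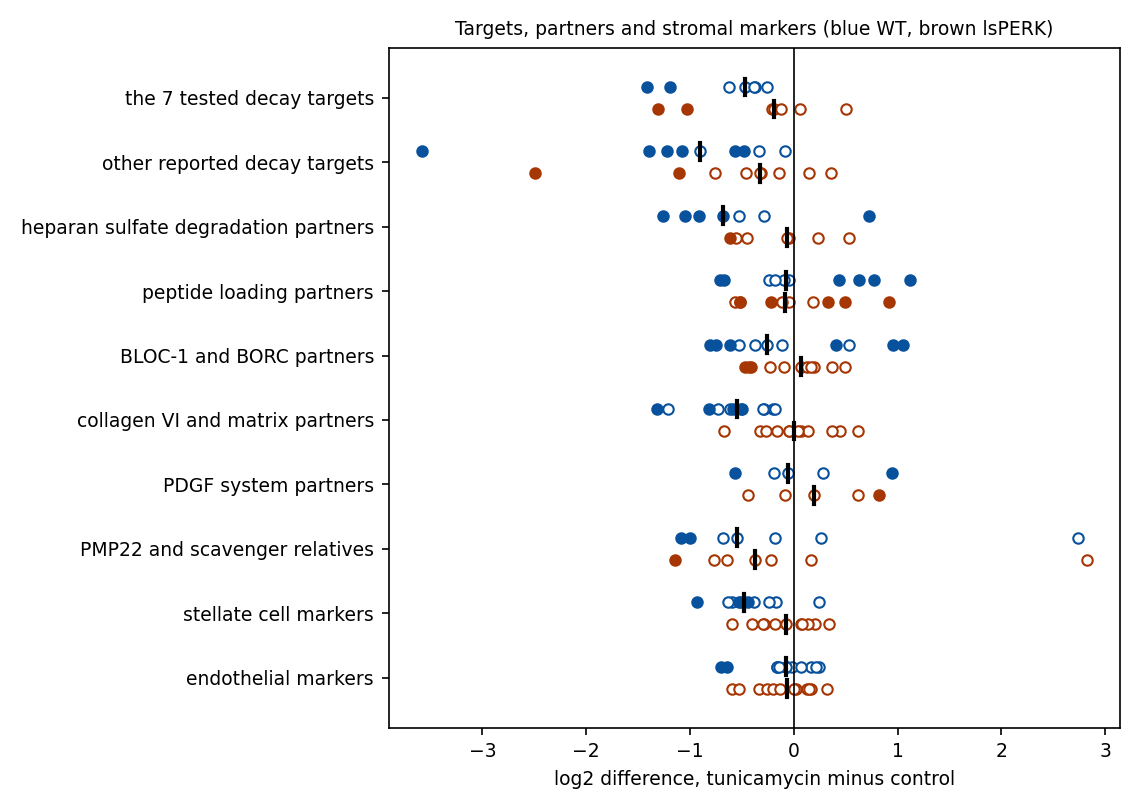
Log2 difference between tunicamycin and control of every tested gene of 10 lists, in WT (blue) and lsPERK liver (brown), with called genes filled and the list median as a black tick. The other reported decay targets have medians of -0.90 and -0.32, and the peptide loading partners of Tapbp lie on both sides of 0 with medians of -0.07 and -0.08.

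Between genotypes, 0 of the 7 members were called under control treatment, where limma called 0% of all genes in either direction. Eif2ak3, at 240.2 to 443 in WT control and 127 to 157 in lsPERK control arrays, was thus not called either. A missing call in this comparison does not show equal levels. The unadjusted limma p of the members ran from 0.117 for Scara3 to 0.979 for Pmp22. The lsPERK control arrays of Scara3 all lay below the WT control arrays, a lack of overlap found for 4.59% of genes. The shared probe set differed by -0.12 under control treatment (limma adjusted p = 0.983). After tunicamycin 0 of 7 members were called, against 18.5% of genes called higher and 16.8% called lower in lsPERK liver. Of the members 1 (Tapbp) had an unadjusted limma p under 0.05, a looser threshold whose share over all genes is not given here. All 7 log2 differences were above 0, from 0.14 for Hgsnat to 0.47 for Scara3, with a median of 0.25, and the median over all genes was 0.05. As deposited, Hgsnat was at -0.12.

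Tapbp was 0.24 higher in lsPERK than in WT tunicamycin arrays on the log2 scale (limma adjusted p = 0.113), and it was called without lsPERK tunicamycin replicate 3 (0.32, limma adjusted p = 0.0411). The shared probe set was 2.37-fold higher in lsPERK tunicamycin arrays, a log2 difference of 1.24 (limma adjusted p = 2.62e-05), against 14.9% of probe sets called higher. In the difference of both responses 0 of 7 members were called, against 10.2% of genes called higher and 9.7% called lower. There 1 member (Scara3) had an unadjusted limma p under 0.05, again without the share over all genes at that threshold. The order of the members' WT log2 differences, from lowest to highest, was Hgsnat, Tapbp, Sparc, Scara3, Pmp22, Pdgfrb and Col6a1. The intervals of Hgsnat and Tapbp overlapped each other, and that of Sparc (-1.26 to 0.02) overlapped both. No test between members was made.

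The genes whose level over the 14 arrays was most like that of a member are given by Pearson's r, as a description. Arrays of 4 groups share treatment and normalization in these values. For Hgsnat they were Plbd2, Sidt2 and Limd2 (r = 0.99, 0.98 and 0.98). For Tapbp they were Sidt2, Flot1 and Wdfy3 (r = 0.98, 0.97 and 0.96), so that Sidt2 appeared for both. For the shared probe set they were Add1, 1810019D21Rik and Oaf (r = 0.98, 0.98 and 0.97). Pmp22 was most like Lrat, a stellate cell marker, with Fam126a and Rcan2 next (r = 0.96, 0.95 and 0.95), and Sparc was most like Col14a1, Slc13a3 and Npr3 (r = 0.90, 0.88 and 0.88). The closest genes were Pkn3, Ptgis and Stim1 for Col6a1 (r = 0.91, 0.87 and 0.86), Pde6c, A4gnt and Klf7 for Pdgfrb (r = 0.85, 0.83 and 0.82) and L3mbtl3, Cdon and Lrig1 for Scara3 (r = 0.84, 0.81 and 0.79).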

How the data were processed

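Per the labels' protocols, total liver RNA was isolated with TRIzol and RNeasy columns, and 100 ng was labelled by the Affymetrix 3' method. The authors deposited 1 linear intensity per probe set and array (45101 probe sets, 64 of them controls), made with GCOS and MAS5 per the submitters' processing notes, with scaling, masking and versions given in none of the sources used here. Array medians ran from 34.4 to 53.4, and log2 values were quantile normalized. Depth does not apply to arrays, and their number limits the precision.

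Probe sets were named from the platform annotation (34945 with 1 gene, 932 with several, 9160 with none named), of which 34754 matched the RefSeq gene table. The filter required 3 or more arrays above the pooled median intensity of 41.5, which left 25315 probe sets and 12084 genes. Each gene was read by its kept probe set of highest mean. limma 3.58.1 in R 4.3.3 fitted 4 group means over all 14 arrays (10 residual degrees of freedom, variance trend), with two-sided contrasts, Benjamini-Hochberg adjustment over all genes and calls at an adjusted p under 0.05. The probe set shared by Rdh5 and Bloc1s1 was tested in the same fit over all kept probe sets.

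The members and lists were chosen with earlier results of these data known. Named from each list were up to 4 genes in order of p in the WT response, and for each member the 3 genes of highest Pearson r over the arrays. Tests were run on simulated data of 12084 genes, in which 100 genes were changed at each size. Log2 changes of 1 were recovered in 64% for the WT response, 60% for the lsPERK response and 38% for their difference. Changes of 2 were recovered in 89%, 87% and 80%. In the data 26% of genes were called lower and 20.7% higher in WT liver, so these recoveries need not hold there. Arrays of 1 group correlated at r = 0.942 to 0.980, and at most 0.00443% of values were identical between arrays.

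The labels do not say what a replicate number marks. Deviations of arrays of the same number correlated at 0.27, 0.24 and 0.35 between both lsPERK groups, where numbers 1 and 2 were Xist-high in both, and at -0.25, -0.37 and 0.16 between both WT groups. The replicate block was run as an alternative, and alternatives also covered scaling, filters, variance models, probe set choice, covariates and each array left out.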

Additional observations from a re-analysis of the deposited data

Results flagged for a closer look

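In the 44 genes and probe sets examined, 1 array stood far from the rest of its tunicamycin group in 6 of 88 groups of 4, where chance flags about 1 in 20 groups. None of them was a member. In WT tunicamycin arrays, Pdk2 read 491.9 in replicate 2 and 577 to 584 in the others, and Rtn4 read 4307 in replicate 2 and 1737 to 1925 in the others. Sgsh read 33.4 in WT tunicamycin replicate 3, below the filter threshold, and 65.7 to 69.3 in the others. Col6a3 read 130.0 in WT tunicamycin replicate 1 and 146 to 149 in the others. In lsPERK tunicamycin arrays, Dnajb9 read 11728 in replicate 3 and 10284 to 10413 in the others, and Col4a1 read 200.5 in replicate 4 and 291 to 306 in the others.

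The response to tunicamycin differed between genotypes for 16 of the 44, by limma's test of the difference itself (lsPERK minus WT, log2 scale). Over all tested genes 10.2% were called higher and 9.7% lower in this difference. Most of the 44 were chosen by p in the WT response, which is part of the difference, and that choice can raise their count. Among reported decay targets, Ces1d differed by 1.09 (adjusted p = 0.0103) and Ergic3 by 0.76 (adjusted p = 0.00403). The probe set shared by Rdh5 and Bloc1s1 differed by 1.36 (adjusted p = 0.00129) and Rdh5 alone by 1.01 (adjusted p = 0.0103). In the IRE1 arm, Edem1 differed by -0.93 (adjusted p = 0.00236), Ern1 by -0.68 (adjusted p = 0.0151) and Xbp1 by -0.66 (adjusted p = 0.00367). Among partners of the members, limma gave -0.69 for Bloc1s4 (adjusted p = 0.0175), -0.79 for Borcs6 (adjusted p = 0.0255) and -0.59 for Tapbpl (adjusted p = 0.0322). The lysosomal enzyme genes Gusb, Ids and Sgsh differed by 0.81, 0.62 and 1.00 (limma adjusted p = 0.015, 0.0147 and 0.0495). The matrix genes Fn1, Col4a2 and Col6a3 differed by 1.15, 0.54 and 0.65 (limma adjusted p = 0.000302, 0.0407 and 0.0489).

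With values as deposited, 9 of these 16 differences lost their call: those of Ces1d, Ergic3, Rdh5, the shared probe set, Gusb, Ids, Sgsh, Col4a2 and Col6a3. That of Col4a2 turned to -0.03. With median centring 8 lost it: those of Bloc1s4, Rdh5, Xbp1, Gusb, Ids, Sgsh, Col4a2 and Col6a3.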

How the results depend on the processing

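Hgsnat, Tapbp and the probe set shared by Rdh5 and Bloc1s1 stayed called lower in WT liver under all 29 alternatives (log2 -1.48 to -0.86, -1.31 to -0.67 and -2.88 to -2.25) and in lsPERK liver under all 30 (-1.46 to -1.10, -1.08 to -0.90 and -1.46 to -1.28). With the replicate block, Hgsnat was at -1.38 in WT and -1.28 in lsPERK liver, 2 members were called lower in each, and the block changed no call of a member. With a block over lsPERK replicates 1 to 3 alone, chosen after seeing the data, Hgsnat was at -1.25 and Tapbp at -1.08 in lsPERK liver (limma adjusted p = 0.00635 and 0.00451). The count of members lower in WT liver was 4 with Xist status in the fit and 2 to 5 with each array left out in turn. The count higher in the difference of responses was 1 without a variance trend (Scara3, limma adjusted p = 0.0395), and that under tunicamycin was 0 to 1 with each array left out.

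As deposited, signs turned for the WT response of Col6a1 (0.081), Pdgfrb (0.080) and Pmp22 (0.067), and for the difference of responses of Hgsnat (-0.46), Tapbp (-0.36), Col6a1 (-0.40), Pdgfrb (-0.35) and Pmp22 (-0.28). They turned for the control comparison of Sparc (0.011), Pmp22 (0.36) and the shared probe set (0.17), and for Hgsnat under tunicamycin (-0.12). With median centring they turned for Hgsnat in the difference of responses (-0.050) and under tunicamycin (-0.038), and for Pmp22 under control (0.032). With the mean of kept probe sets, Sparc was at -0.26 in lsPERK liver and Pdgfrb at -0.12 in the difference. With Xist status, Hgsnat was at -0.031 under control. With each array left out, the lsPERK response ranged from -0.079 to 0.16 for Sparc and -0.45 to 0.023 for Pdgfrb, and the difference of responses from -0.045 to 0.31 for Hgsnat, -0.14 to 0.41 for Col6a1 and -0.078 to 0.47 for Pdgfrb. The control comparison ranged from -0.17 to 0.18 for Hgsnat, -0.037 to 0.21 for Tapbp, -0.21 to 0.34 for Col6a1, -0.62 to 0.048 for Sparc, -0.14 to 0.40 for Pdgfrb and -0.13 to 0.16 for Pmp22. None of these values was called.

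As deposited, 705 genes were called lower and 3632 higher in WT liver, against 3139 and 2497 after quantile normalization and 1953 and 3014 with median centring. In lsPERK liver 290 were lower as deposited, 427 with median centring and 449 without lsPERK control replicate 2, against 880. In the difference of responses 129 genes were higher and 1772 lower as deposited, against 1231 and 1172. Without WT control replicate 3, the WT fall of Emp3 lost its call (limma adjusted p = 0.0639). The cause was not tested. Small differences of dim probe sets, such as that of Scara3, are limited by signal near the filter threshold.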
